A study of Rattus norvegicus with 6 samples.

Results

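Toll-like receptors, the co-receptor Cd14 and the Tlr4 partner Ly96 were examined in whole blood after experimental stroke. They sense parts of microbes and molecules set free by injured tissue. Of 9 genes listed for this purpose (Tlr2, Tlr3, Tlr4, Tlr5, Tlr6, Tlr7, Tlr9, Cd14 and Ly96), the members were all probe sets that the array annotation names for one of them. This gave 1 probe set each for Tlr2, Tlr4, Tlr7, Cd14 and Ly96, that is 5 genes among the 14217 genes named by a single symbol. Tlr3, Tlr5, Tlr6 and Tlr9 were not analysed here, because no probe set carried their names in the annotation used. The blood came from male Sprague-Dawley rats, 8 weeks of age, of which 3 had MCAO and 3 a sham operation, with 1 array per rat. In the MCAO group a coated thread closed the origin of the left middle cerebral artery for a time and was then withdrawn. The sham group had the same surgery with an uncoated thread, so ligation of the neck arteries and anesthesia were common to both groups, and blood was drawn from the heart 24 h after reperfusion. The study chose its 3 MCAO rats from a larger operated set by infarct size, which limits how far they stand for all operated animals.

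Toll-like receptors are membrane proteins with a ligand-binding ectodomain of leucine-rich repeats and a cytoplasmic TIR domain, through which they recruit adaptors such as Myd88. Tlr2 and Tlr4 stand at the cell surface, where Tlr2 binds bacterial lipoproteins and Tlr4, bound to Ly96 (MD-2), responds to lipopolysaccharide handed over by Cd14. Tlr7 lies in endosomes and binds single-stranded RNA. In blood, monocytes and neutrophils are the main carriers of the surface receptors, whereas Tlr7 is known from plasmacytoid dendritic cells and B cells. Proteins such as Hmgb1 and S100a8/S100a9, released by damaged or activated cells, have been described as ligands of Tlr2 and Tlr4.

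The deposited values are log2 expression on the scale of the DFW (Distribution Free Weighted) method, which contracts differences between arrays strongly and to a different degree for each probe set. Values ran from 4.93 to 14.43, and across the 6 rats probe sets had a median SD of 2.46 millionths of a log2 unit. Deviations and differences are therefore given in millionths of a log2 unit, or divided by the SD of the same probe set over the 6 rats, and are not fold changes of RNA. Levels of different probe sets give no ranking of RNA amounts, since brightness depends on the probes. The array median was 5.56. Means over the 6 rats lay near it, at 5.83 for Tlr2, 5.71 for Cd14, 5.56 for Tlr4, 5.53 for Ly96 and 5.47 for Tlr7. Whether these members stood above background cannot be told from the deposited values. Some markers of expected cells were bright. In the MCAO and sham groups, means were 12.99 and 12.99 for Alas2 (red cell precursors) and 11.52 and 11.52 for Pf4 (platelets). Lyz2, from the monocyte list, had 10.45 and 10.45. All other measured monocyte markers were dimmer, from 5.39 for Adgre1 to 6.38 for Cd68 in both groups. MCAO rat 1 had an array median 58.5 millionths below the mean of the other 5 medians, which spanned 22.6 millionths. In whole blood, fewer cells of a type and less RNA per cell cannot be told apart.

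No receptor or co-receptor passed a test of the difference between the groups. The mean was higher in the MCAO group for Tlr2, Tlr7 and Cd14 and lower for Tlr4 and Ly96, and the groups overlapped for all 5. By Rank Products, the method of the study, 0 of the 5 were called at a false discovery rate (FDR) under 0.05, where 0.135% of all 31042 probe sets were called higher in the MCAO group and 0.557% lower. By limma 0 of the 5, as 0 of all probe sets, had an adjusted p under 0.05, and 0 of the 5 had an unadjusted p under 0.05, against 1150 of all probe sets. The groups of 0 of the 5 lay apart, where every MCAO rat lay above every sham rat in 4.82% and below in 3.6% of all probe sets. The median difference over the 5 was 0.509 millionths, beside 0.0672 millionths over all probe sets tested.

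Cd14, the lipopolysaccharide-binding co-receptor, came nearest to a difference between the groups. For Cd14, MCAO rats 1 to 3 stood at 5.7080874, 5.7080885 and 5.7080966, and the sham rats, in the same order, at 5.7080805, 5.7080877 and 5.7080790. All 3 MCAO rats lay above sham rats 1 and 3, and only sham rat 2 reached into the MCAO group, where it lay between MCAO rats 1 and 2. The difference (MCAO minus sham) was 8.47 millionths (limma SE 3.71, 95% confidence interval -1.39 to 18.3, adjusted p = 1), which is 1.76 times the SD within groups. The exact two-sided permutation test gave p = 0.2, where 0.1 is the smallest value that 3 against 3 rats allow. The direction held whichever rat was left out, with differences from 5.60 to 11.1 millionths, and quantile normalization gave 10.7 millionths (SE 10.1). With each array centred on its median the difference was 38.3 millionths (SE 16.9, limma adjusted p = 0.240). Centring adds the same amount to the difference of every probe set, so this value does not bear on the direction for Cd14.

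Tlr4, the lipopolysaccharide receptor itself, was set apart by a single rat. For Tlr4, MCAO rats 1 to 3 stood at 5.5581958, 5.5582002 and 5.5582001, and the sham rats, in the same order, at 5.5581999, 5.5581999 and 5.5581983. MCAO rat 1 was 3.23 millionths below the mean of the 6 rats, and the 5 other rats were between 0.70 below and 1.17 above it. The difference was -0.677 millionths (SE 1.47, 95% confidence interval -4.58 to 3.22, adjusted p = 1 by limma, exact permutation p = 1), and without MCAO rat 1 it was 0.771 millionths.

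Ly96, the protein that holds lipopolysaccharide on Tlr4, had the widest spread of the members together with Tlr2. For Ly96, MCAO rats 1 to 3 stood at 5.5282016, 5.5282578 and 5.5285842, and the sham rats, in the same order, at 5.5283755, 5.5284727 and 5.5283509. MCAO rats 1 and 2 were below all sham rats and MCAO rat 3 was above all of them. The SD was 207 millionths in the MCAO group and 64.4 millionths in the sham group (n = 3 each). The difference was -51.8 millionths (SE 118, 95% confidence interval -364 to 260, adjusted p = 1 by limma, exact permutation p = 0.7). Without MCAO rat 3 it was -170 millionths (SE 48.3, limma adjusted p = 0.782) and without MCAO rat 1 it turned to 21.3 millionths.

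Tlr2, the lipoprotein receptor, followed the same order within the MCAO group. For Tlr2, MCAO rats 1 to 3 stood at 5.8339523, 5.8340483 and 5.8343594, and the sham rats, in the same order, at 5.8341252, 5.8340682 and 5.8340952. Again MCAO rats 1 and 2 were below and MCAO rat 3 above every sham rat. The SD was 213 millionths in the MCAO group and 28.5 millionths in the sham group (n = 3 each). The difference was 23.8 millionths (SE 117, 95% confidence interval -286 to 334, adjusted p = 1 by limma, exact permutation p = 1), and without MCAO rat 3 it turned to -95.9 millionths (SE 38.4, limma adjusted p = 0.782).

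**Figure D1:**
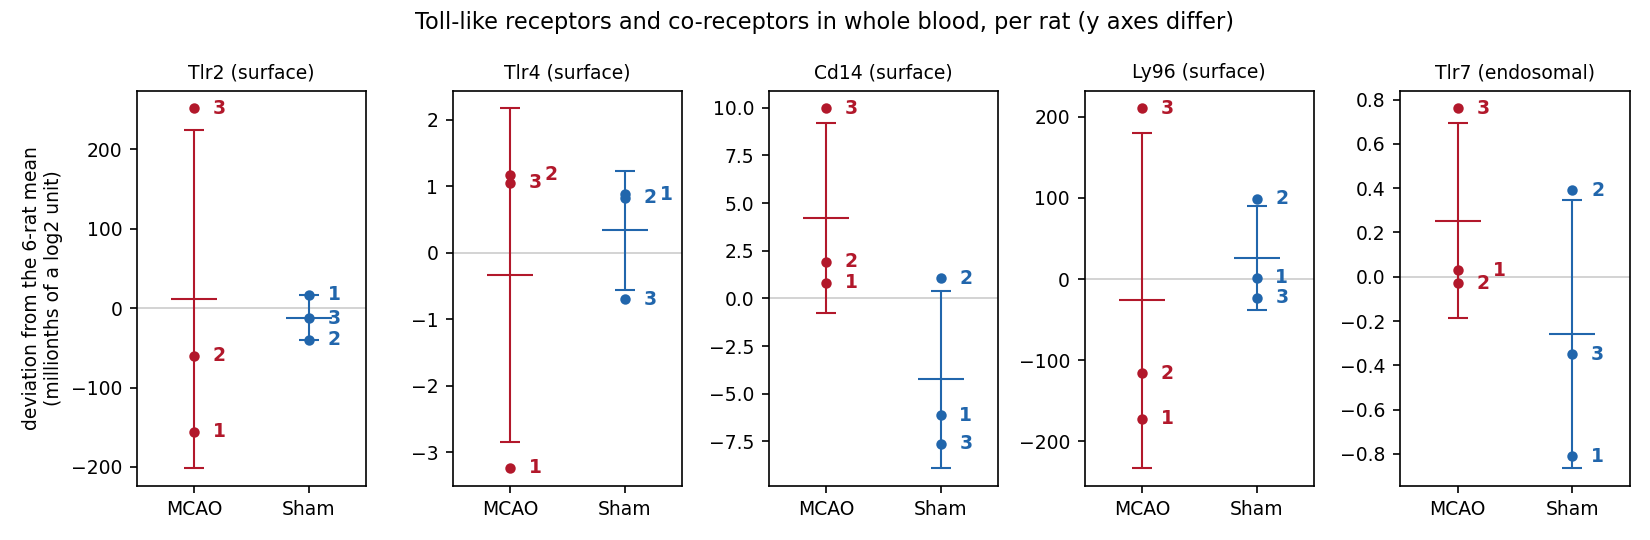
Deviation of each rat from the mean of the 6 rats (y axis, millionths of a log2 unit on the DFW scale) for the 4 surface genes and Tlr7, with digits for the rat and bars for the mean and SD of each group (n = 3). The y axes differ between panels. The groups overlap in all 5 panels, and MCAO rat 3 is the highest rat for Tlr2, Cd14, Ly96 and Tlr7.

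Tlr7 was the single member among the endosomal receptors that had a probe set. For Tlr7, MCAO rats 1 to 3 stood at 5.4737731, 5.4737730 and 5.4737738, and the sham rats, in the same order, at 5.4737722, 5.4737734 and 5.4737727. Sham rat 2 lay above MCAO rats 1 and 2, and the other sham rats lay below all MCAO rats. The difference was 0.509 millionths (SE 0.478, 95% confidence interval -0.760 to 1.78, adjusted p = 1 by limma, exact permutation p = 0.4), and it stayed between 0.233 and 0.832 millionths whichever rat was left out. Quantile normalization gave 14.1 millionths (SE 6.75). Median centring, which adds the same amount to the difference of every probe set, gave 30.3 millionths (SE 17.8). Tlr1 and Tlr8, the other Toll-like receptors with a probe set, had differences of 0.374 millionths (SE 0.331) and 29.9 millionths (SE 43.0), with overlapping groups (adjusted p = 1 by limma for both). Tlr8, an endosomal receptor that lies beside Tlr7 on the X chromosome, was highest in MCAO rat 3, 96.5 millionths above the mean of the 6 rats.

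To set the surface genes against the endosomal receptor in each rat, every probe set was scaled to its own SD over the 6 rats. The mean of the 4 surface genes was -1.03, -0.07 and 1.38 SD in the MCAO rats, whereas the sham rats had -0.08, 0.27 and -0.47 SD. Tlr7 was 0.06, -0.05 and 1.38 SD in the MCAO rats and -1.47, 0.71 and -0.63 SD in the sham rats. Thus both stood at 1.38 SD in MCAO rat 3. For Tlr7 this was 0.76 millionths, as its SD was larger than that of only 15.9% of probe sets. MCAO rat 1 was low in the surface mean but not in Tlr7, and sham rat 1 was low in Tlr7 but not in the surface mean. Among surface genes Cd14 differed, with 0.13 SD in MCAO rat 1 and -0.97 SD in sham rat 1. Tlr2, Tlr4 and Ly96 had -1.14, -1.87 and -1.23 SD in MCAO rat 1, and 0.13, 0.51 and 0.01 SD in sham rat 1. Tlr8, also endosomal, had -0.60 and -0.47 SD in these rats. The surface mean minus Tlr7 was -0.37 ± 0.62 SD in the MCAO group and 0.37 ± 0.94 SD in the sham group (SD, n = 3 each), and the gap of -0.743 SD between the groups was close to the spread of 0.796 SD within them. It depended on single rats, with -0.144 SD without MCAO rat 1, -0.342 SD without sham rat 1, -1.122 SD without sham rat 2 and -1.215 SD without MCAO rat 3. As a score over chosen members it was given no test, and Tlr7 alone cannot stand for the endosomal receptors.

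MCAO rat 3 was the highest of the 6 rats for 4 of the 5 members, where 15.5% of all probe sets were highest in that rat. MCAO rat 1 was the lowest for 3 of the 5, where 19.5% of all probe sets were lowest in it. Markers of several blood cell types, but not of all, moved with these rats. Of 9 measured monocyte markers (of 10 listed), 6 were highest in MCAO rat 3 and 5 lowest in MCAO rat 1, and their mean scaled deviation ran from -0.80 to 1.16 SD in the MCAO group and from -0.26 to 0.46 SD in the sham group. Of 7 measured neutrophil markers (of 10 listed), all were highest in MCAO rat 3 and 4 lowest in MCAO rat 1, with a mean from -0.77 to 1.71 SD in the MCAO group and from -0.49 to -0.11 SD in the sham group. All 7 measured platelet markers (of 8 listed) were also highest in MCAO rat 3, with 1.77 SD. Of the 7 measured NK cell markers (of 8 listed), 1 was highest in MCAO rat 3 and 4 were lowest in MCAO rat 1. Their means were 0.77 and -0.98 SD in these rats, and 1.10 SD in sham rat 2. Of 6 measured B cell markers (of 9 listed) and 10 T cell markers 0 were highest in MCAO rat 3, while 5 and 8 of them were lowest in MCAO rat 1, with a mean of -1.34 SD for both lists. B cell markers ran from -1.34 to -0.16 SD in the MCAO group and from 0.42 to 1.10 SD in the sham group, and 5 of 6 lay lower in every MCAO rat than in every sham rat. The 4 measured dendritic cell markers (of 7 listed) ran from -0.66 to 0.48 SD in the MCAO group and from -0.85 to 0.48 SD in the sham group. Of 6 measured erythroid markers (of 8 listed), 0 were highest in MCAO rat 3 and 2 lowest in MCAO rat 1, counting a tie with other rats for Hbb. The mean of the 6 ran from -0.65 to -0.03 SD in the MCAO group and from -0.80 to 0.97 SD in the sham group. Hbb counts fully in it, though its rats lay only between -0.01 and 0.02 millionths from their mean. The part of cell composition in the receptor values was not tested.

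**Figure D2:**
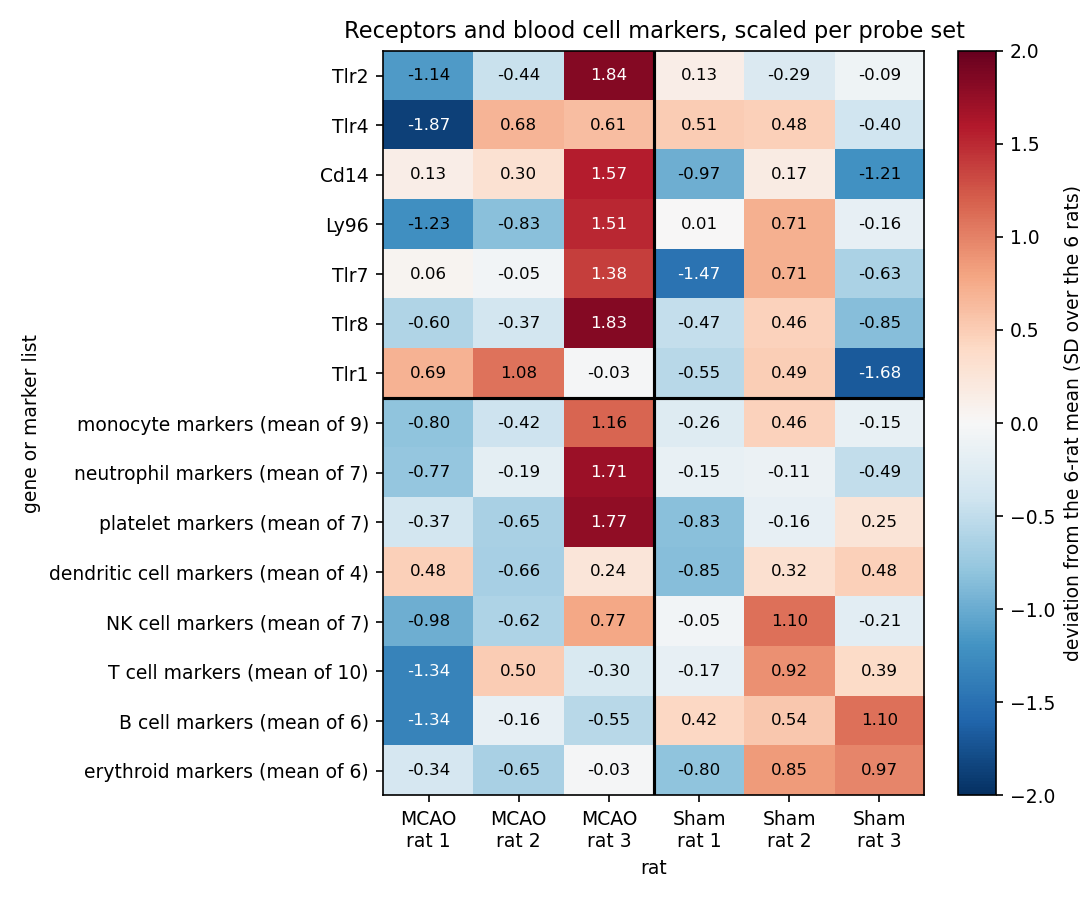
Deviation of each rat from the mean of the 6 rats (colour and printed value, in SD of the probe set over the 6 rats) for the receptors with a probe set (upper rows) and the mean of each blood cell marker list (lower rows), with 1 column per rat. In MCAO rat 3 Tlr2, Cd14, Ly96, Tlr7 and Tlr8 stand between 1.38 and 1.84 SD, and the monocyte, neutrophil and platelet markers between 1.16 and 1.77 SD.

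The genes whose profile over the 6 rats was most like that of a member are given as a description. For Tlr2 they were Ints9 and Ikbkb, a kinase that acts downstream of the receptor, with Pearson r = 0.996 for both over 6 rats. For Ly96 they were Ifi30, a lysosomal thiol reductase of antigen-presenting cells (r = 0.999), and Ints4 (r = 0.996). For Cd14 they were Il36b (r = 0.988) and the gene named 4933427D14Rikl (r = 0.986). For Tlr4 they were C9h2orf49 and the integrin chain Itgae (r = 0.984 for both), and for Tlr7 Tnip2, a partner of the NF-κB inhibitor Tnfaip3 (r = 0.987), and Cpeb4 (r = 0.985). With only 6 rats such values are common, and between 52 genes (Tlr7) and 321 genes (Ly96) had r over 0.9 with a member. The points share the 6 arrays and their joint normalization.

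For Tlr2 and Tlr7, which were highest in MCAO rat 3, and for Tlr4, which was not, the 250 bases before the annotated start are shown from RefSeq (GRCr8). They lie at chr2:171504558-171504807 on the minus strand for Tlr2, chrX:30644176-30644425 on the plus strand for Tlr7 and chr5:85160997-85161246 on the plus strand for Tlr4. Each is written 5′ to 3′ on the strand of the gene. Capitals mark GAGGAA or its complement TTCCTC, the core of sites for PU.1 and related ETS factors of myeloid and B cells.
Tlr2: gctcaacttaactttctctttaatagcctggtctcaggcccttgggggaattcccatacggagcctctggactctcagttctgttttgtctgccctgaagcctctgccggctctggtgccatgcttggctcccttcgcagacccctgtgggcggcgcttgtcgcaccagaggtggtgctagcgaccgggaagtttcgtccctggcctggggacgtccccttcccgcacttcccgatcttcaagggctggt
Tlr7: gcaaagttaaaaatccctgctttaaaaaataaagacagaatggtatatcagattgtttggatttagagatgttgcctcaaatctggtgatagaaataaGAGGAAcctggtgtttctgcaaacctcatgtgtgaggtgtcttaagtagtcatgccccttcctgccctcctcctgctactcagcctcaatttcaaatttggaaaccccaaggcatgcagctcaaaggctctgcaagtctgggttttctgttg
Tlr4: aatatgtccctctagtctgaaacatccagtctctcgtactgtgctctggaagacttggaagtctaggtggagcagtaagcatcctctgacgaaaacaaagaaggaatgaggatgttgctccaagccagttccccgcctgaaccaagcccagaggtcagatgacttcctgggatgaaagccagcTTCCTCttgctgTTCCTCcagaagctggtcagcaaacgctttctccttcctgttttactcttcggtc
Tlr7 held the motif at 152 bases before the start, on the strand of the gene, and the same window of Cd14 held it at 140 and 105 bases. Tlr4 held it at 67 and 55 bases before the start on the other strand, and Tlr2 held none in this window. Of 33469 promoters of this length in the table, 23.3% held it on either strand. A match describes these letters only.

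Of 88 other genes of the pathway, 79 were measured. By Rank Products 3 of the 79 were called lower in the MCAO group (3.80%, beside 0.557% of all probe sets) and 0 higher. These shares are no test of the pathway. The lists were chosen with earlier results of these data known, and the probe set with the highest mean stood for each gene. Of the 79, 2 lay below and 4 above without overlap (2.53% and 5.06%, beside 3.6% and 4.82%). The mean was lower for 40 and higher for 39, and the median difference was -0.0657 millionths, beside 0.0672 millionths over all probe sets.

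Irak1, the kinase that Myd88 recruits to activated receptors, was called lower in the MCAO group. For Irak1, MCAO rats 1 to 3 stood at 8.194508, 8.192567 and 8.194558, and the sham rats, in the same order, at 8.196036, 8.197730 and 8.197278, so that every MCAO rat was below every sham rat. The difference was -3137 millionths (SE 780, limma p = 0.0124, adjusted p = 1, exact permutation p = 0.1) with a Rank Products FDR of 0.00406. The FDR rose to 0.0786, 0.135 and 0.114 without sham rat 1, 2 or 3, and to 0.951 after quantile normalization. Irak3, which restrains this kinase step, had a difference of -171 millionths (SE 68.9) and was not called, and Irak1 was the single gene called among 13 kinases and ubiquitin ligases. Of 4 measured adaptors 0 were called, and Tirap and Sarm1 had differences of 1.22 millionths (SE 0.832) and 4.26 millionths (SE 2.04).

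Among the 10 measured NF-κB and interferon regulatory factors 0 were called, and 7 had a lower mean in the MCAO group. Chuk and Nfkb1 had differences of -281 millionths (SE 204) and -164 millionths (SE 106). Of 9 restraints of the pathway 0 were called. Tollip, an inhibitor of Irak1, lay above all sham rats in every MCAO rat, with a difference of 4.30 millionths (SE 1.86, exact permutation p = 0.1), and Ly86, the partner of Cd180, had -56.6 millionths (SE 24.1). Of 10 genes for folding, trafficking and ligand delivery 0 were called. Cnpy3, a chaperone of the receptors, had 0.466 millionths (SE 0.289) with groups that did not overlap. The SD of Cnpy3 was larger than that of only 8.33% of probe sets. Lgmn, a protease that cuts endosomal receptors, had -82.5 millionths (SE 57.8).

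Among 9 measured ligands of the receptors S100a9, a calprotectin chain of neutrophils and monocytes, was called lower (FDR 0.0414), although its mean was higher in the MCAO group. For S100a9, MCAO rats 1 to 3 stood at 9.024561, 9.061737 and 9.123635, and the sham rats, in the same order, at 9.065814, 9.078267 and 9.057720. MCAO rat 1 was the lowest and MCAO rat 3 the highest of all, as for Tlr2 and Ly96, and the difference was 2711 millionths (SE 27763, exact permutation p = 0.9). A call by Rank Products therefore did not give the direction of the mean here. Vcan had 90.1 millionths (SE 76.8), and Sftpa1, known from lung, had -0.631 millionths (SE 0.421) without overlap. The SD of Sftpa1 was larger than that of only 15.2% of probe sets.

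Of 22 target genes of the pathway, Ccl5, a chemokine that T and NK cells also make, was called lower (FDR 0.0106). For Ccl5, MCAO rats 1 to 3 stood at 7.860601, 7.872651 and 7.891254, and the sham rats, in the same order, at 7.877834, 7.891870 and 7.877511, and the groups overlapped (difference -7570 millionths, SE 9498, exact permutation p = 0.4). Il6 lay above all sham rats in every MCAO rat with a difference of 1.90 millionths (SE 0.677, adjusted p = 1 by limma). Its mean was 5.18 in both groups, below the array median of 5.56, and its SD was larger than that of 33.2% of probe sets. Ccl3 had -64.9 millionths (SE 36.2). Ifnb1 also lay above without overlap, with 0.0317 millionths (SE 0.254). Its rats lay only between -0.02 and 0.04 millionths from their mean, with an SD larger than that of just 0.245% of probe sets. The count of 3 pathway genes called lower became 8 without MCAO rat 3 (with S100a8, Il1b, Irf7, Fn1 and Sod2 added), 1 without MCAO rat 2, and 0 without sham rat 1, 2 or 3. Without sham rat 2, Fn1 and Il1b were called higher.

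**Figure D3:**
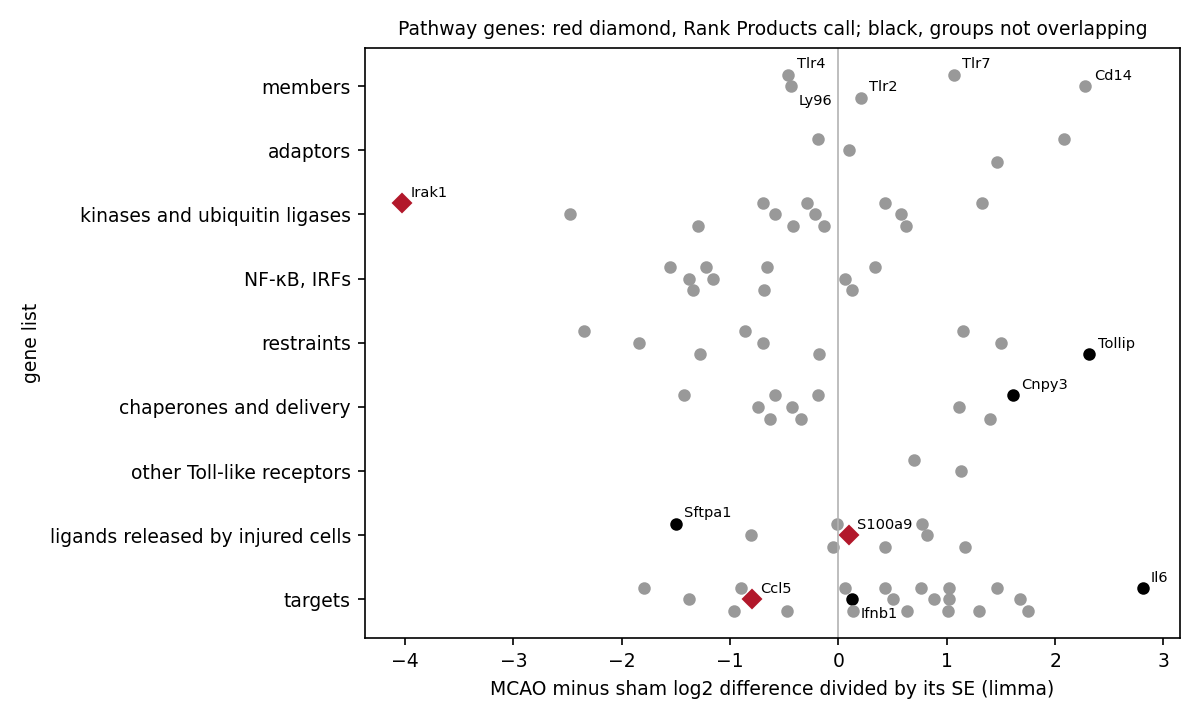
MCAO minus sham log2 difference divided by its standard error from limma (x axis) for each measured gene of the receptors and of 8 pathway lists (y axis), with red diamonds for Rank Products calls and black points for genes whose groups do not overlap. The receptors lie among the uncalled pathway genes, Irak1 lies farthest to the left, and S100a9 is called although it lies near 0.

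The spread of the members was set beside that of the probe sets called by Rank Products. Every called probe set had an SD over the 6 rats larger than that of at least 94.4% of all probe sets. The members with the widest spread, Ly96 and Tlr2, had an SD larger than that of 94.1% and 94.0% of probe sets, Cd14 of 71.5%, Tlr4 of 40.9% and Tlr7 of 15.9%. No member therefore had a spread as wide as that of any called probe set. This SD includes any difference between the groups, so called probe sets are wide in part by construction. Whether spread accounts for the missing calls was not tested. A missing call does not show that the RNA of a member was equal in the groups.

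**Figure D4:**
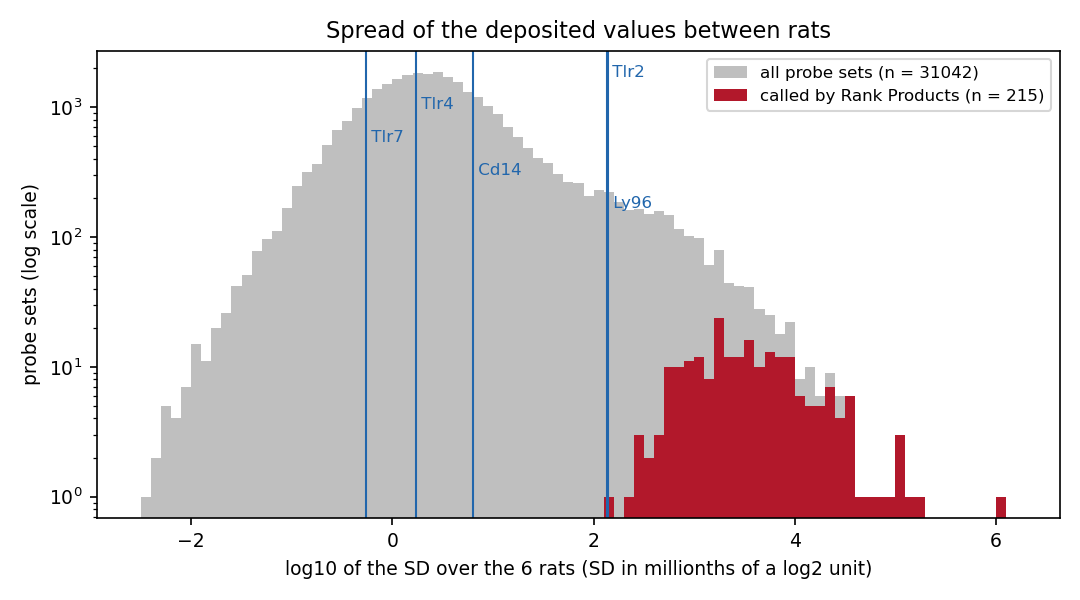
Number of probe sets (y axis, log scale) by the log10 of their SD over the 6 rats (x axis, SD in millionths of a log2 unit), for all 31042 probe sets and for the 215 called by Rank Products, with lines at the members. The lines of Tlr2 and Ly96 nearly coincide, and the called probe set with the smallest SD falls in the same bin just above them.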

How the data were processed

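Blood RNA of the 6 rats was hybridised to GeneChip Rat Genome arrays. As deposited by the authors, log2 values (base taken from their range) were normalized over the 6 arrays together with DFW in R, at 1 value per probe set, with no stated filter. Gene names came from the array's annotation table. The probe set with the highest mean stood for a gene in lists. After 57 control probe sets were left out, 31042 were tested. Rank Products, named by the methods, was written in Python 3.11.15 (numpy 2.4.6) with all 9 differences between arrays and 100 permutations within arrays. limma 3.58.1 in R 4.3.3 gave differences and Benjamini-Hochberg adjusted p values. Exact permutation tests were two-sided over 10 splits. Both methods were tested on simulated data. Members and lists were chosen with earlier results of these data known. Pathway genes named are those called, those without overlap (added after the values were seen) and the 2 per list with the largest difference over its SE. Alternatives were limma, an intensity trend, a stricter FDR, control probe sets kept, only the brighter probe sets, quantile normalization, median centring, rats as blocks, other probe sets, each rat left out and, chosen after seeing the data, another set of permutations. Signal over background cannot be given, and precision is limited by having 6 arrays. Nothing in the labels ties rats to shared days or batches.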

Additional observations from a re-analysis of the deposited data

How the results depend on the processing

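No member was called by Rank Products or limma under any alternative run, and Tlr4, Tlr7 and Ly96 were too dim to enter the one with the brighter probe sets. Quantile normalization turned the difference of Tlr2 to -15.4 millionths and that of Tlr4 to 2.75 millionths, and median centring turned that of Tlr4 to 29.1 millionths. Under these settings, in that order, Cd14 had 10.7 and 38.3, Tlr7 14.1 and 30.3 and Ly96 -34.7 and -22.1 millionths, and centring gave 53.6 millionths for Tlr2. Centring adds the same amount to the difference of every probe set, and it shifts MCAO rat 1 by more than the whole range of Tlr4, Tlr7 or Cd14. With each rat left out, differences ran from -95.9 to 108 millionths for Tlr2 (reversed without MCAO rat 3). They ran from -1.43 to 0.771 for Tlr4 and from -170 to 21.3 for Ly96 (both reversed without MCAO rat 1). Cd14 and Tlr7 kept their sign with each rat left out and after quantile normalization. Centring could not test their sign, since it raised every difference by the same amount. The gap between surface genes and Tlr7 stayed negative, but ran from -1.215 to -0.144 SD without 1 rat and was -1.035 SD after quantile normalization and -0.479 SD after centring.

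Of all probe sets, 173 were called lower and 42 higher by Rank Products. These became 58 and 27 at an FDR under 0.01, 88 and 26 after quantile normalization and 0 and 0 by limma, and 86 were lower among the brighter probe sets. Without 1 rat they ranged from 13 (sham rat 3) to 338 (MCAO rat 3) and from 15 (MCAO rat 1) to 62 (sham rat 3). The 3 pathway genes called lower became 1 at an FDR under 0.01, 1 after quantile normalization and 0 by limma, and 0 to 8 without 1 rat, with 0 to 2 called higher. limma called 0 probe sets, 62 after quantile normalization, and 0 to 1 without 1 rat. The cause was not tested.

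The labels gave same-numbered rats only a number in common. Correlations of their deviations were 0.21, 0.04 and 0.07, which cannot show whether such rats shared handling. With rats as replicate block the difference of Cd14 is 8.47 millionths by design, since each block holds both groups. Only its precision could change. The SE went from 3.71 to 4.36 and the limma p from 0.0772 to 0.164, and 0 probe sets were called.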
